A study of Mus musculus with 192 samples.

Results

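Npy, the gene for neuropeptide Y, was followed through every pool of a study of the L44 mouse, as 1 of the 43 target genes counted there. It was chosen by its name in the raw count table. Its count in each pool was divided by the geometric mean of the counts of the 3 reference genes, and a level below is the number of Npy counts per 100 counts of that mean. L44 mice are 1 transgenic line. They carry triprolyl-human amylin, a form of the islet hormone amylin that does not aggregate, under the rat insulin 2 promoter, which acts in pancreatic β cells, on the FVB/n background. The study compared hemizygous (HEM), homozygous (HOM) and nontransgenic (NON) mice to find how brain gene expression changes as these mice become diabetic. RNA was hybridised to barcoded probes and counted without amplification on the NanoString nCounter.

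All mice were male. T1 was before diabetes, at labelled ages of 99 to 101 days, T2 was the onset of diabetes, at 90 to 286 days with NON mice matched by age, and T3 was after blood glucose had returned to normal, at 400 to 408 days. NON, HEM and HOM mice came from matings between HEM parents, so all 3 genotypes share their background. The hindbrain piece held the cerebellum, and the midbrain piece held the forebrain and hypothalamus beside the midbrain itself. The left and right cortex were taken separately. Tissue was collected in the morning (AM) or the afternoon (PM), and 12 pools of T1 HEM mice have no labelled collection time, so they entered no comparison within a collection time. The 192 pools held 341 tissue samples, with 2 mice in 149 pools and 1 mouse in 43 pools, and pools of a group held different mice. Pools are named here by the numbers of their mice.

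Neuropeptide Y is a peptide transmitter that strongly stimulates feeding when it is released in the hypothalamus. There it is made with agouti-related peptide (Agrp) in neurons of the arcuate nucleus, which leptin and insulin inhibit and which oppose the neurons that make Pomc and Cart. Outside the hypothalamus it is abundant in GABAergic interneurons of the cortex, hippocampus and striatum, where its synthesis follows neuronal activity. In RNA from whole pieces of brain, fewer cells of a type and less RNA per cell cannot be told apart, and these neuron populations are counted together.

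Npy was well counted in every pool. Hindbrain pools gave raw counts of 83 to 6154 and midbrain pools of 6348 to 48353. Left cortex pools gave 7735 to 124563 and right cortex pools 13527 to 126885. The background of a pool was set 2 SD above the average of its 8 negative control probes, and 0 pools lay at it. The lowest value in any pool was still 9.14-fold over it. The summed count of the target genes, which sets the depth, had a hindbrain median of 151091 (3489 to 252890) and a midbrain median of 245328 (125321 to 314759). Its left cortex median was 278654 (51446 to 490984), and that of the right cortex 414121 (90264 to 525264). In 3 hindbrain pools of T3 (NON PM pool 5/6, NON AM pool 7 and HOM AM pool 9) the reference gene mean was under 1000 counts. Both cortices were counted less deeply at T3, where the median totals were 151641 (left) and 144687 (right), against 393475 and 430111 at T1. The hindbrain median total was 89256 at T3 against 153238 at T1, and that of the midbrain 238912 against 223175.

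The labelled pieces were checked against genes of hypothalamic neurons. Mch, a peptide of the lateral hypothalamus, had a median level of 411 in the midbrain pools against 2.46 in hindbrain pools and, in cortical pools, 1.70 (left) and 1.86 (right). Hcrt, the orexin precursor of the same area, had medians of 13.6, 0.449, 0.476 and 0.494 in the same order. The arcuate markers were also highest in the midbrain piece, with a median of 1.87 for Agrp against 0.676 in the hindbrain, and 5.42 for Pomc against 2.09. Hdc, the histamine-forming enzyme of the tuberomammillary nucleus, did not separate the hindbrain (4.14) from the midbrain (4.44), and its cortical medians were 1.00 and 1.03. The 3 midbrain pools of T1 HEM mice without a collection time did not match each other. Pools 1/2 and 5/6 had low Pomc levels of 1.07 and 0.951 against 4.18 to 6.45 in T1 NON, Hdc of 1.65 and 1.01 against 4.34 to 5.31, and Agrp of 0.794 and 0.571 against 1.37 to 2.84. Pool 3/4 lay within the T1 NON range for Agrp (1.54) and Pomc (6.21) and above it for Hdc (5.64). Mch was 339 and 238 in the former pools and 646 in pool 3/4, against 411 to 475 in T1 NON, and Hcrt was 14.3, 8.43 and 24.6 against 13.6 to 17.2. The islet transcripts Ins1, Ins2 and Iapp lay above background in 21, 39 and 28 of 49 midbrain pools and in 23, 31 and 21 of 46 hindbrain pools. In each cortex they did so in 3 to 7 pools.

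Npy was lowest in the hindbrain, intermediate in the midbrain piece and highest in the cortex. The hindbrain level was 70.2 ± 6.00 (SD, n = 46 pools), with all pools between 54.6 and 78.5. The midbrain level was 333 ± 126 (SD, n = 49 pools), between 181 and 729. The left cortex stood at 851 ± 257 (SD, n = 48 pools) and the right cortex at 861 ± 270 (SD, n = 49 pools), with ranges of 531 to 1505 and 512 to 1444. The hindbrain pools overlapped no pool of another region, whereas the highest midbrain pools overlapped the lower cortical pools. As a share of all target gene counts, Npy made up 2.26% of hindbrain counts and 7.98% of midbrain counts, but 17.8% of left and 18.1% of right cortex counts. The spread between pools was small in the hindbrain and wider in the other regions.

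**Figure D1:**
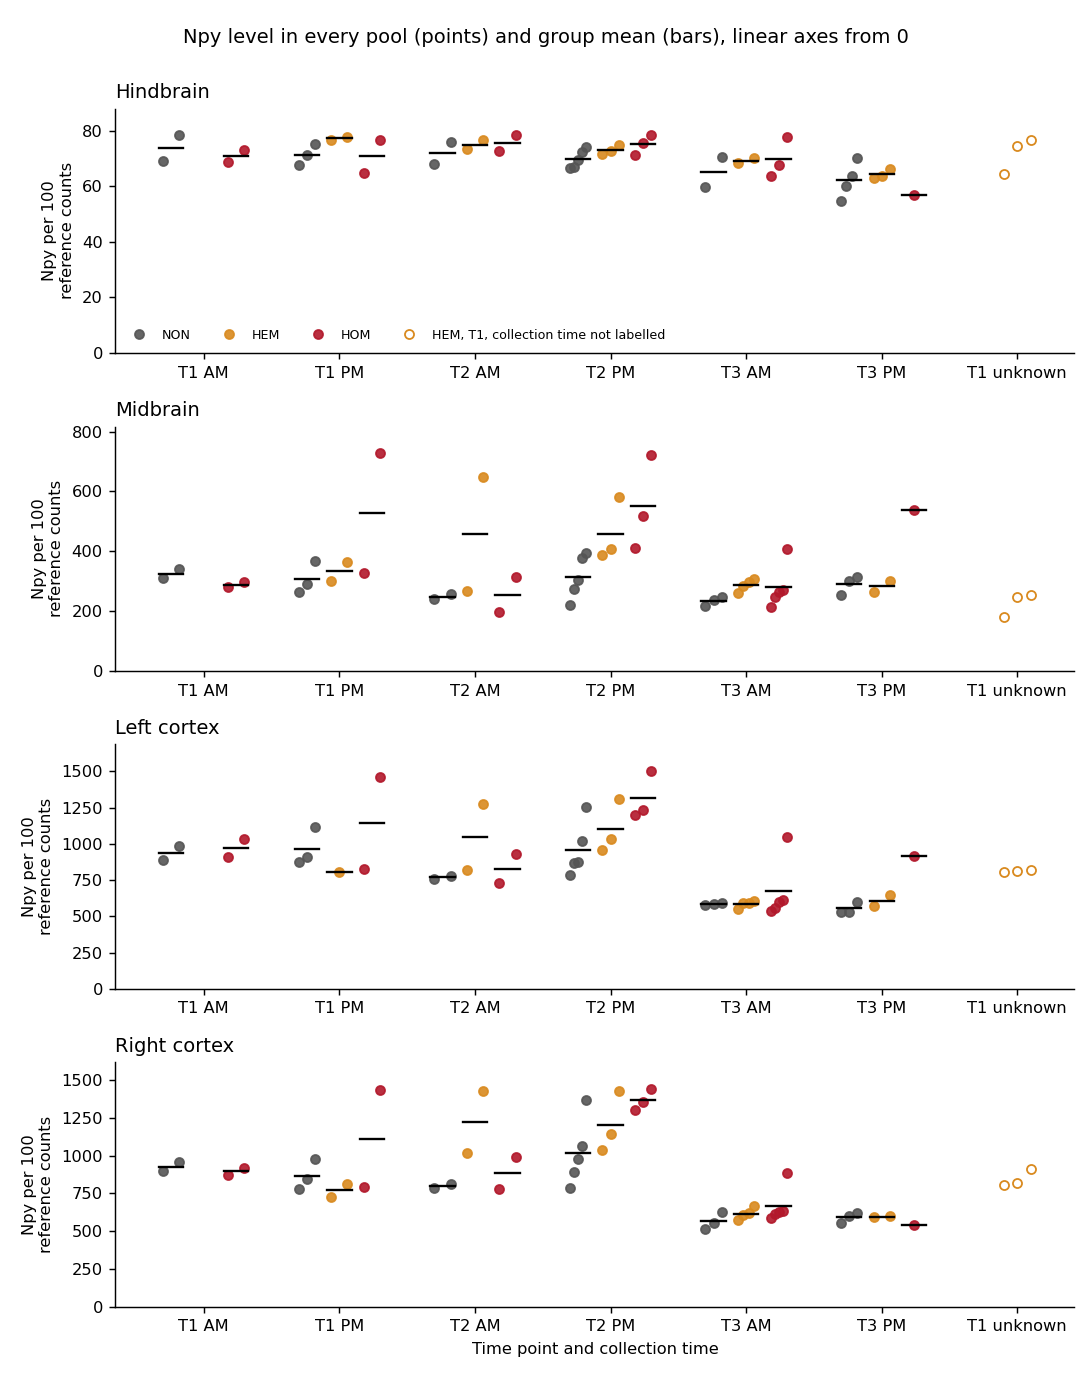
Npy counts per 100 counts of the reference gene mean in every pool (points) by time point and collection time, with the group mean as a bar, in 4 panels with separate linear axes that start at 0. The hindbrain pools stay between 54.6 and 78.5, 6 midbrain pools lie above 500, and nearly all T3 cortex pools lie below those of T1 and T2.

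Regions of the same pool were compared in an edgeR quasi-likelihood fit with the pool as a block, so that each mouse served as its own control. For T3 HOM PM pool 1/5 the labels disagree on the age of a mouse, with 405 days in the left cortex and 401 in the midbrain. The midbrain exceeded the hindbrain by 2.19 on the log2 scale (SE 0.075, 38 pools, adjusted p = 1.0e-27), which is 4.55-fold, and it did so in 38 of 38 pools. The left cortex exceeded the midbrain by 1.38 (SE 0.046, 46 pools, adjusted p = 5.5e-32), or 2.61-fold, in 46 of 46 pools. The right cortex exceeded the midbrain by 1.43 (SE 0.045, adjusted p = 5.9e-33), or 2.69-fold, also in 46 of 46 pools. Against the hindbrain the cortices were 12.5-fold and 12.9-fold higher, in all 36 pools that held the same mice. The right and left cortex differed by 0.03 on the log2 scale (SE 0.018, 45 pools, adjusted p = 0.247 in the same edgeR fit), and 31 of 45 pools were higher on the right. Npy thus passed the test in 5 of 6 pairs of regions, where 69.4% of all gene tests did. Against the hindbrain it had the largest fold-change of the 43 genes in both cortices. Among the 6 other genes of the feeding list (Agrp, Pomc, Cart, Hcrt, Mch and the melanocortin receptor Mc4r), 6 were higher in the midbrain than in the hindbrain and 6 were lower in the left cortex than in the midbrain, so Npy ran opposite to all of them between midbrain and left cortex. All of these values are relative to the reference genes, whose own levels may differ between regions.

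In NON mice, Npy fell with time point in both cortices. In the left cortex the AM pools read 983 and 890 at T1 and 581, 587 and 589 at T3. The PM pools of that region read 874, 1118 and 907 at T1 and 533, 531 and 600 at T3. In the right cortex they read 955 and 897 (AM) and 848, 977 and 780 (PM) at T1, against 512, 555 and 626 (AM) and 623, 555 and 599 (PM) at T3. Every T3 pool of NON mice lay below every T1 pool in both cortices. Averaged over collection times, T3 minus T1 was -0.74 for the left cortex (SE 0.15, edgeR adjusted p = 9.0e-05), or 0.60-fold. For the right cortex it was -0.63 (SE 0.13, adjusted p = 7.5e-05), or 0.65-fold. The midbrain changed by -0.28 (SE 0.20, adjusted p = 0.223) and the hindbrain by -0.19 (SE 0.067, adjusted p = 0.0135).

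These declines were part of a general one. Of all gene tests of T3 against T1 in NON mice, 51.7% were called lower, Npy being called in 3 of 4 regions, and the median of the 43 genes was -0.22 (left cortex), -0.33 (right cortex), -0.54 (hindbrain) and -0.20 (midbrain). Relative to that median, Npy was at -0.52 and -0.30 in the cortices, at -0.08 in the midbrain and at 0.35 in the hindbrain, so the cortical decline of Npy exceeded the typical gene and the hindbrain decline fell short of it. When all target genes set the scale (TMM) instead of the reference genes, Npy was higher at T3 in the hindbrain by 0.30 (adjusted p = 0.000728) and lower in the left cortex by -0.46 (adjusted p = 0.0173), and the right cortex no longer passed (-0.27, adjusted p = 0.144). Called genes of the left cortex were then 12 higher and 10 lower, against 6 and 19 with the reference genes. When the positive control probes set the scale, Npy was at -2.35 (left cortex), -2.41 (right cortex) and -1.86 (hindbrain), beside medians of -1.83, -2.09 and -2.13 for the 43 genes, of which 43, 43 and 42 were called lower. Relative to the median of all genes, the left cortex gave -0.52 on all 3 scales, the right cortex -0.30 to -0.32 and the hindbrain 0.27 to 0.35. Without NON AM pool 2/7 of T1 or NON AM pool 4/11 of T3, the hindbrain value was -0.14 (adjusted p = 0.104) or -0.13 (adjusted p = 0.261). The leptin list (Lepr, Lepr-b, Jak2, Stat3, Socs3, Ptp1b and Pias3) had 6 of 7 genes lower at T3 in each cortex. The insulin list of 10 genes, from the receptor Insr to mTor, had 6 lower and 2 higher in the left cortex and 9 lower and 1 higher in the right. Of the 6 other genes of the feeding list, only Mc4r passed in the left cortex, lower, and only Cart in the right, higher. Time point cannot be told apart from age or from any processing done for 1 time point at a time.

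In NON mice no difference between T2 and T1 passed the test in any region (log2 -0.17 to 0.01, edgeR adjusted p 0.620 to 0.977), and both cortices were lower at T3 than at T2 (-0.59 on the left and -0.64 on the right, adjusted p = 0.000771 and 3.3e-05). HEM mice, which have no AM group at T1, fell from T2 to T3 by 0.84 in the left cortex (adjusted p = 2.4e-05), by 1.00 in the right (adjusted p = 9.2e-08) and by 0.68 in the midbrain (SE 0.21, adjusted p = 0.0119). HOM mice fell by 0.87 in the right cortex (adjusted p = 1.5e-05), while their midbrain changed by 0.05 (SE 0.23, adjusted p = 0.916) and their left cortex by -0.42 (SE 0.18, adjusted p = 0.0559). T3 minus T2 in the hindbrain also passed the test in HOM (-0.25, adjusted p = 0.0089) and NON (-0.16, adjusted p = 0.0375), and was -0.15 in HEM (adjusted p = 0.0649). Of the 43 genes, 22 (HOM) and 27 (NON) were called there, with medians of -0.40 and -0.33, a larger fall than that of Npy. NON cortices had 21 (left) and 28 (right) called genes, with medians of -0.30 and -0.37. HEM cortices had 31 and 22 (medians -0.45 and -0.28), HEM midbrain 16 (-0.15) and the HOM right cortex 30 (-0.46). Npy fell further than each of these medians outside the hindbrain. The T3 HOM PM group behind the HOM values is 1 pool in each region, and its mice differ between regions. It was pool 1/5 in the midbrain (level 539) and left cortex (914), mouse 1 alone in the right cortex (538) and pool 1/11 in the hindbrain (56.8). The T3 HOM AM means of the cortices were close, at 672 (left) and 669 (right). The HOM changes of different regions thus do not rest on the same mice, and a difference between regions was not tested. T2 mice differ in age, and over the 7 NON pools of T2, at mean ages of 114 to 254 days, midbrain Npy had r = -0.56 and Spearman coefficient = -0.57 with age (exact permutation p = 0.196 and 0.200, adjusted p = 0.786 over 4 regions). Without the 2 pools of most extreme age, r was -0.23.

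Within a single time point and collection time, Npy passed the genotype test only in HOM mice of the T2 PM group, in the midbrain. There the 5 NON pools read 221, 275, 305, 379 and 393, the 3 HEM pools 389, 406 and 581, and the 3 HOM pools 411, 518 and 722. All HOM pools lay above all NON pools, and the lowest HEM pool lay just under the highest NON pool. HOM exceeded NON by 0.81 on the log2 scale (SE 0.24, adjusted p = 0.0259 by edgeR's quasi-likelihood test), or 1.75-fold, and passed the test as 3 of 43 genes (6.98%) did in that comparison. An exact permutation test over the 56 splits of the same 3 against 5 pools gave p = 0.0357. HEM exceeded NON by 0.54 (SE 0.24, adjusted p = 0.314), or 1.46-fold, with an exact permutation p = 0.0536.

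The call in T2 HOM PM rested on few pools and on the fit. With age-matched pools as a block the difference was 0.74 (edgeR adjusted p = 0.113), and with the 2 groups fitted alone its adjusted p was 0.162. Without HOM pool 6/9, the highest, the difference was 0.56 (edgeR adjusted p = 0.374). It also missed the threshold without HOM pool 4/8 (0.85, adjusted p = 0.0528) and without NON pools 11/14, 2/15 or 6/9 (0.80, 0.76 and 0.70, adjusted p = 0.0552, 0.0745 and 0.0725). In the AM at T2 the NON pools read 258 and 239, the HEM pools 647 and 269, and the HOM pools 314 and 197. HEM was 0.88 above NON (SE 0.33, adjusted p = 0.135), a value that 1 pool carried. Without HEM pool 4/6 it was 0.11, and without HEM pool 9 it was 1.38, each with 1 HEM pool left. HOM was 0.04 above NON (SE 0.33, adjusted p = 0.991).

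Averaged over AM and PM at T2, HEM exceeded NON in the midbrain by 0.71 (SE 0.20, edgeR adjusted p = 0.0259), or 1.64-fold, and Npy was 1 of 4 genes called among 43 (9.3%). Without HEM AM pool 4/6 the value was 0.33 (adjusted p = 0.388). It also missed the threshold without HEM PM pools 5/10 or 8/14 (0.61 and 0.75, adjusted p = 0.0602 and 0.0647), NON AM pools 1/3 or 7/8 (0.74 and 0.69, adjusted p = 0.0602 and 0.200) or NON PM pool 6/9 (0.66, adjusted p = 0.0504). With TMM it was 0.66 (adjusted p = 0.0512). The same average for HOM was 0.42 (SE 0.20, adjusted p = 0.377).

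At T1 the same unevenness appeared. The midbrain T1 PM pools read 289, 366 and 263 in NON, 364 and 302 in HEM, and 729 and 328 in HOM, so that 1 HOM pool stood far above all others and the other lay among the NON pools. HOM was 0.79 above NON (SE 0.30, edgeR adjusted p = 0.131), 0.10 without pool 1/5 and 1.25 without pool 8/9. Either of these leaves 1 HOM pool, so only the size is given. In the AM the HOM pools (298 and 279) lay below both NON pools (340 and 310). The 3 midbrain pools of T1 HEM mice without a collection time read 255, 181 and 247, below every NON pool of T1. The lowest of them is pool 3/4, whose Agrp, Pomc and Hdc levels were not low, while those of pools 1/2 and 5/6 were, as given above. The part of these markers in the Npy levels was not tested. With those pools included and collection time ignored, HEM was -0.22 from NON (SE 0.16, adjusted p = 0.720), while the PM pools alone gave 0.12 (SE 0.30, adjusted p = 0.805).

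At T3 the AM midbrain pools read 216, 248 and 236 in NON, 308, 283, 298 and 260 in HEM, and 407, 271, 265, 215 and 248 in HOM. All HEM pools lay above all NON pools, by 0.30 on average (SE 0.25, edgeR adjusted p = 0.423), whereas HOM, 0.27 higher (SE 0.24, adjusted p = 0.475), overlapped NON. In the PM the NON pools read 313, 301 and 255, the HEM pools 265 and 302, and the 1 HOM pool 539, which has no replicate and was not tested. T3 labels also say whether a mouse had been diabetic before, and this label is present in NON pools too. Among the HOM AM pools, the 4 labelled as previously diabetic read 248 to 407 in the midbrain and the other pool read 215. The HEM pools ran the other way, with AM pools of 260 and 283 labelled as previously diabetic against 298 and 308 without, and PM pools of 265 against 302.

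**Figure D2:**
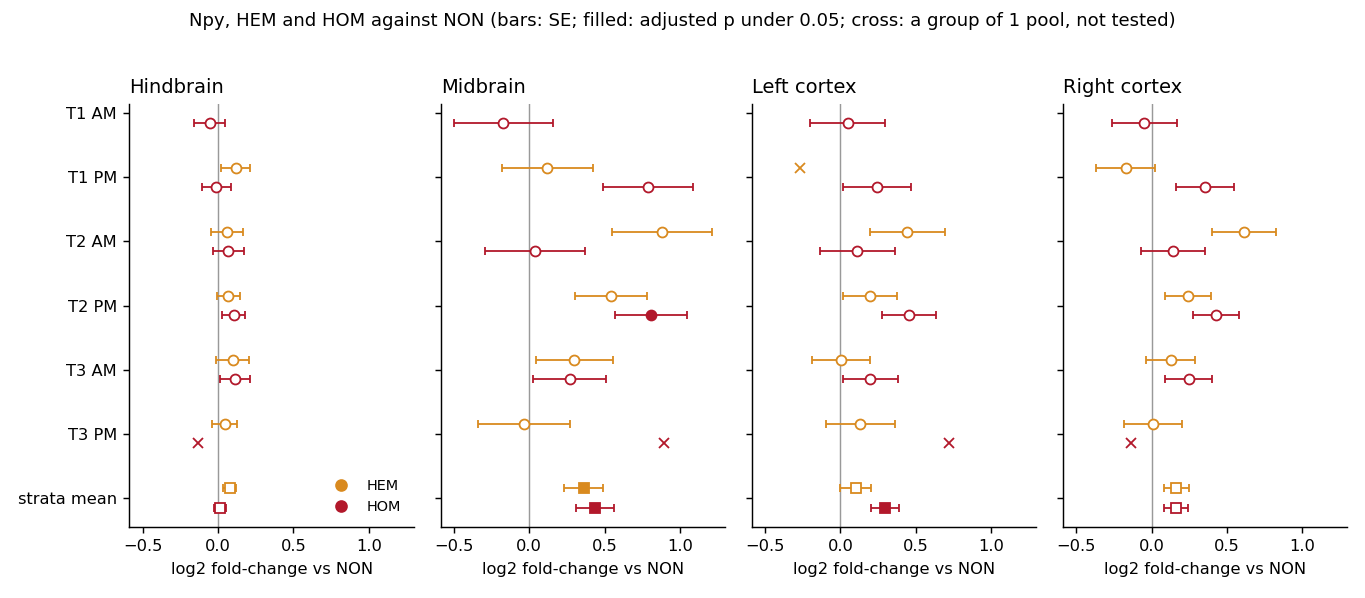
Log2 fold-change of Npy in HEM and HOM against NON in each region by time point and collection time (circles with SE bars), and averaged over them (squares), where filled symbols have an adjusted p under 0.05 and crosses mark groups of 1 pool. Hindbrain values lie between -0.06 and 0.12 where tested, and the midbrain holds the filled circle at 0.81 and filled squares at 0.36 and 0.44.

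Over all 39 comparisons of HEM or HOM with NON that had at least 2 pools in each group, Npy passed the test in 1, where 4.71% of all gene tests did, so the count itself does not stand out. Npy was higher in the transgenic group in 33 of the 39, and over all genes 939 of 1677 tests were. Its 7 comparisons at an unadjusted p under 0.05 in the edgeR fit were all higher in the transgenic group, and over all genes 229 of 1677 tests had such a p. They share NON pools and regions of the same mice, and so are not independent. Tested hindbrain log2 fold-changes ran from -0.06 to 0.12 (8 of 10 higher) and midbrain ones from -0.17 to 0.88 (8 of 10 higher, median 0.28). Left cortex values ran from 0.00 to 0.45 (9 of 9 higher) and right cortex values from -0.17 to 0.61 (8 of 10 higher).

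Averaging the genotype difference over the time points and collection times that hold both groups used 29 midbrain pools for HEM, which has no T1 AM group, and 33 for HOM. In the midbrain, HEM exceeded NON by 0.36 (SE 0.13, edgeR adjusted p = 0.0249) and HOM exceeded NON by 0.44 (SE 0.12, adjusted p = 0.0232). The HEM average came to 0.21 (adjusted p = 0.219) without T2 HEM AM pool 4/6. The HOM average came to 0.32 (adjusted p = 0.0933) without T1 HOM PM pool 1/5 and to 0.35 (adjusted p = 0.132) without the 1 T3 HOM PM pool, while without T2 HOM PM pool 6/9 it was 0.40 (adjusted p = 0.0434). Other single pools also took these averages past the threshold, namely T1 HEM PM pool 8, T2 NON AM pool 7/8 and T3 HEM PM pool 8/10 for HEM (0.33, 0.35 and 0.34) and T1 HOM AM pool 3/4, T1 NON AM pool 8/9 and T2 HOM AM pool 1/3 for HOM (0.43, 0.43 and 0.38). In the left cortex HOM exceeded NON by 0.30 (SE 0.094, adjusted p = 0.0402) and HEM by 0.10 (adjusted p = 0.850). That HOM average missed the threshold with TMM (0.29, adjusted p = 0.0768) and without any of 18 pools, with its lowest values, 0.21 and 0.22 (adjusted p = 0.213 and 0.198), without the 1 T3 HOM PM pool and without T1 HOM PM pool 1/5. The right cortex gave 0.16 for both genotypes (adjusted p = 0.222 for HEM and 0.287 for HOM). With the positive control probes as the scale, the HOM average was 0.47 (adjusted p = 0.0171) in the right and 0.76 (adjusted p = 0.000236) in the left cortex, beside medians of 0.34 and 0.42 for all genes, which lay at 0.02 and -0.02 with the reference genes. The averages in the hindbrain were 0.08 for HEM and 0.01 for HOM (adjusted p = 0.212 and 0.888). Npy passed in 3 of these 8 averages, where 10.8% of all gene tests did. HOM and HEM did not differ detectably in the midbrain (0.20 higher in HOM, SE 0.14, adjusted p = 0.390), a standard error that leaves room for a difference either way.

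The cortices at T2 PM gave smaller differences in the same direction. In the left cortex the NON pools read 786, 868, 877, 1020 and 1252, the HEM pools 958, 1036 and 1308, and the HOM pools 1203, 1237 and 1505. HOM was 0.45 above NON (SE 0.18, edgeR adjusted p = 0.0820), with NON pool 5/10 the only NON pool that reached the HOM range, and 0.57 without that pool (adjusted p = 0.0483). The right cortex behaved alike, with NON pools of 786, 891, 976, 1064 and 1370, HOM pools of 1301, 1354 and 1444, and a difference of 0.43 (SE 0.15, adjusted p = 0.153), or 0.56 without NON pool 5/10 (adjusted p = 0.0149). That pool was singled out after its values were seen, and it holds the same mice in both cortices. Of the 8 fits without 1 pool, only that 1 passed in each cortex. These fits ran from 0.34 to 0.57 (left) and from 0.35 to 0.56 (right). In the hindbrain the NON pools read 66.5 to 74.2 and the HOM pools 71.3, 75.4 and 78.5, a difference of 0.10 (SE 0.076, adjusted p = 0.978). HEM at T2 PM was 0.20 (left cortex) and 0.24 (right cortex) above NON (edgeR adjusted p = 0.766 and 0.616). In the T2 AM cortices, with 2 pools a group, HEM was 0.44 (left) and 0.61 (right) above NON (adjusted p = 0.453 and 0.268). HOM there was 0.11 and 0.14 above NON (adjusted p = 0.989 and 0.949).

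Whether the T2 PM effect belonged to the midbrain was tested within pools. The midbrain HOM effect exceeded the hindbrain one by 0.69 (edgeR adjusted p = 0.140), the left cortex one by 0.33 (adjusted p = 0.221) and the right cortex one by 0.35 (adjusted p = 0.269). The HEM effect exceeded them by 0.48, 0.35 and 0.30 (adjusted p = 0.300, 0.0798 and 0.355). Exact permutation tests of the per-pool differences gave p between 0.0357 and 0.0893, all 0.0893 after adjustment over the 6. All 6 differences were positive and none passed, so a midbrain effect larger than that of the other regions was not shown at this number of pools.

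In the midbrain and left cortex the HOM pools differed between collection times. In the midbrain the HOM AM pools read 298 and 279 at T1, 314 and 197 at T2, and 215 to 407 at T3, against 729 and 328, then 411, 518 and 722, and 539 in the PM. The PM pools lay above the AM pools at each time point. PM minus AM in HOM mice, averaged over time points, was 0.97 (SE 0.19, edgeR adjusted p = 0.000269). It was 0.74 (adjusted p = 0.00362) without T1 HOM PM pool 1/5 and 0.89 (adjusted p = 0.000961) without T2 HOM PM pool 6/9. In the left cortex it was 0.45 (adjusted p = 0.0106), which missed the threshold without T1 HOM PM pool 1/5 (0.29, adjusted p = 0.0981) and with the positive control probes (0.61, adjusted p = 0.409). In the right cortex PM minus AM in HOM mice was 0.21 (adjusted p = 0.205), and in the hindbrain -0.10 (adjusted p = 0.378). At T3 in the right cortex the PM pool, mouse 1 alone, read 538, below the AM pools (590 to 883). Npy was called in 2 of 4 regions, where 26.7% of all gene tests were. In NON mice the midbrain difference was 0.19 (adjusted p = 0.698) and in HEM mice -0.01 (adjusted p = 0.987).

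The difference of those differences, HOM minus NON, was chosen for test after these values were seen. In the midbrain it was 0.78 (SE 0.25, edgeR adjusted p = 0.0774) and did not pass. It passed in 4 of 9 alternatives, with DESeq2 (0.78, adjusted p = 0.0438), with the likelihood-ratio test of edgeR (0.78, adjusted p = 0.0377), with the positive control probes (0.98, adjusted p = 0.0230) and without 1 reference gene (0.89, adjusted p = 0.0373). It also passed without T1 HOM PM pool 8/9 (0.94), T2 HOM PM pool 7/10 (0.84) or T3 HOM AM pool 10 (0.84). The call thus depended on the fit and on single pools. Of the differences at a single time point, that at T1 was 0.96 (adjusted p = 0.224) and that at T2 0.77 (adjusted p = 0.963) for HOM, and that at T2 was -0.34 (adjusted p = 0.982) for HEM. The HOM effect at T2 exceeded that at T1 by 0.11, and the effect at T3 exceeded that at T2 by 0.16. None of 40 such contrasts between effects, counted over the 4 regions, passed the test for Npy.

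Npy of the same mice moved together in the midbrain and both cortices. For each pool the deviation of its log2 level from the mean of its group (time point, genotype and collection time) was taken in each region, so that group differences drop out. Left cortex and midbrain deviations had r = 0.89 and Spearman coefficient = 0.83 (41 pools in 15 groups), right cortex and midbrain r = 0.87 and Spearman coefficient = 0.85 (42 pools in 15 groups), and right and left cortex r = 0.92 and Spearman coefficient = 0.84 (40 pools in 14 groups). A permutation test that shuffled pools within groups 100000 times gave p = 1e-05 for each r, the smallest it can give, and adjusted p = 2e-05 over the 6 pairs of regions. Deviations had the same sign in both regions in 34 of 41, 35 of 42 and 34 of 40 pools. With the 2 pools farthest out in the first region of each pair left out, r was 0.89, 0.87 and 0.90. In groups of 2 pools the deviations of both are equal and opposite, so the pools are fewer than independent points.

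**Figure D3:**
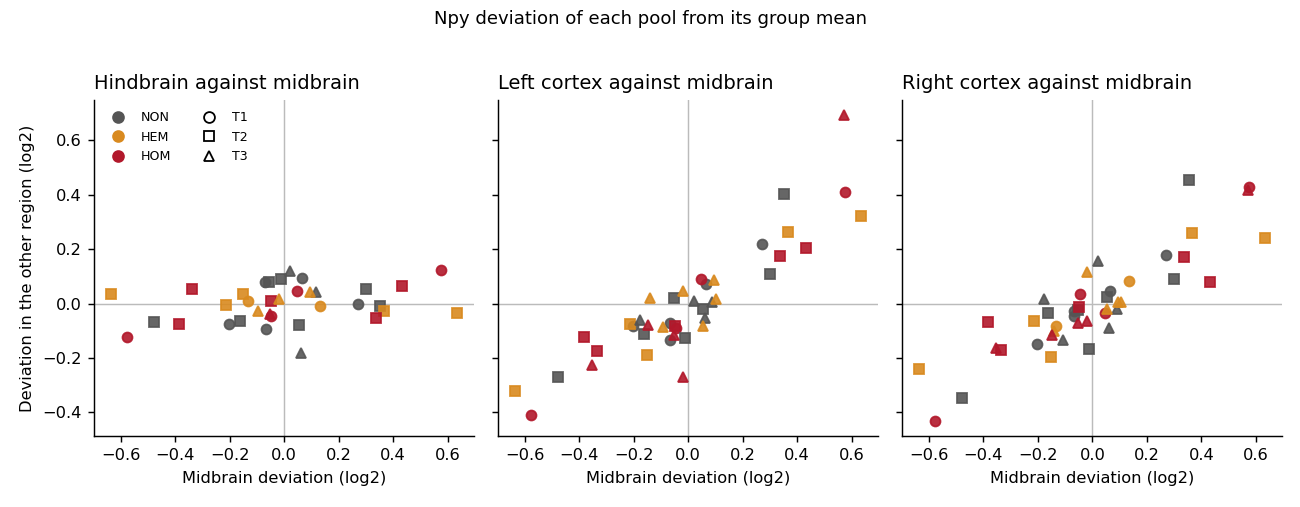
Log2 deviation of Npy from the group mean in the midbrain (horizontal axis) against that in the hindbrain, left cortex and right cortex (vertical axes), each point 1 pool of the same mice, coloured by genotype and shaped by time point. The cortex points climb with the midbrain (r = 0.89 and 0.87), and the hindbrain points stay flat (r = 0.29).

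No such relation was detected with the hindbrain. Its deviations had r = 0.29 with the midbrain (32 pools, permutation p = 0.314, adjusted p = 0.471), 0.30 with the left cortex (28 pools, permutation p = 0.431, adjusted p = 0.518) and 0.25 with the right cortex (28 pools, permutation p = 0.619, adjusted p = 0.619). Spearman coefficients were 0.29, 0.22 and 0.16. The hindbrain also varied least, with an SD of the deviations near 0.07 on the log2 scale against 0.29 (midbrain), 0.21 (left cortex) and 0.18 (right cortex). Within T1 alone the hindbrain r was 0.71 with the midbrain (11 pools), 0.70 with the left cortex (9 pools) and 0.70 with the right (11 pools), and none passed (adjusted p = 0.355 each), while within T2 (17 pools) it was 0.03, -0.06 and -0.16. Within T1, T2 and T3 taken apart, r between left cortex and midbrain was 0.98, 0.93 and 0.85, and between right cortex and midbrain 0.99, 0.85 and 0.82. The T1 values (adjusted p = 0.125 each) and the T3 value of the left cortex (adjusted p = 0.0634) missed the threshold, while the T2 values (adjusted p = 0.00116 each) and the T3 value of the right cortex (adjusted p = 0.0460) passed.

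Some pools illustrate this in all 3 regions. T1 HOM PM pool 1/5 read 729 (midbrain), 1460 (left cortex) and 1433 (right cortex), while its partner pool 8/9 read 328, 828 and 790. T2 HEM AM pool 4/6 read 647, 1274 and 1424 against 269, 818 and 1020 in pool 9. T3 HOM AM pool 10 read 407, 1049 and 883, where the other 4 pools of its group read 215 to 271, 539 to 615 and 590 to 633. Among NON mice, T2 NON PM pool 5/10 (393, 1252 and 1370) was the highest of its group in each region. Pools nearer their group mean did not always keep their sign, as in T3 NON PM pool 5/6, whose deviations were 0.06 in the midbrain but -0.05 and -0.09 in the cortices.

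Most genes of the panel shared their deviations less. The median r over the 43 genes was 0.23 for left cortex and midbrain, 0.20 for right cortex and midbrain, and 0.34 for the cortices. Npy ranked 2 of 43 in all 3 pairs. First was c-Fos, an immediate early gene induced by neuronal activity, with r = 0.92, 0.91 and 0.98. Within a region, c-Fos deviations had little relation to those of Npy. Their r with Npy was 0.20 (midbrain), -0.05 (left cortex), -0.04 (right cortex) and -0.25 (hindbrain). In the pairs with the midbrain, Socs3, an inhibitor of leptin receptor signalling (0.86 and 0.85), and Stat3, the transcription factor of that pathway (0.84 and 0.79), came after Npy. Between the cortices Irs2, a substrate of the insulin receptor (0.83), and Cart (0.80) did. These genes were named after their values were seen, and the values are a description with no test. When the positive control probes set the scale instead of the reference genes, Npy r was 0.47 (adjusted p = 0.0230) for left cortex and midbrain, 0.68 (adjusted p = 0.00648) for right cortex and midbrain and 0.24 (adjusted p = 0.486) between the cortices. With TMM they were 0.90, 0.86 and 0.88.

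Among genes above background in most pools, those whose midbrain deviations were most like Npy over 45 pools were Stat3 (r = 0.67), the phosphodiesterase Pde3b (0.57) and the β-arrestin Arrb1 (0.54). The markers of hypothalamic neurons gave -0.08 (Agrp), -0.21 (Pomc), 0.10 (Hcrt), -0.30 (Mch) and -0.30 (Hdc). Over the 68 group means of all regions, which mainly carry the order of the regions, the most like were Pdk1 (0.96), Arrb1 (0.91) and Gsk3a (0.91). Agrp, the peptide made with Npy in arcuate neurons, thus had a deviation correlation near 0 in the piece that holds the hypothalamus, at levels of 0.926 to 3.10 in these 45 pools.

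The highest midbrain pools, T1 HOM PM 1/5 and T2 HOM PM 6/9 (Npy 729 and 722), were also set apart by Stat3 and Socs3. Their Stat3 levels were 122 and 129, and the other 47 midbrain pools lay between 70.1 and 95.0. Their Socs3 levels were 5.17 and 6.72, and the others lay between 0.633 and 1.44. Both pools also stood apart in the left cortex (Stat3 141 and 160, Socs3 4.58 and 8.34, where no other pool exceeded 98.6 and 1.92). They did so in the right cortex too (Stat3 141 and 141, Socs3 6.50 and 6.39, where no other pool exceeded 99.0 and 1.83). Without them, midbrain Stat3 deviations still had r = 0.56 with Npy over 42 pools, and Socs3 had r = 0.02. Left and right cortex deviations without them gave r = 0.38 and -0.11 for Stat3, and -0.23 and -0.47 for Socs3. The midbrain pools next in Npy level had Socs3 far below 5.17, namely T2 HEM AM 4/6 at 1.05, T2 HEM PM 5/10 at 1.22, T3 HOM PM 1/5 at 1.44 and T2 HOM PM 4/8 at 1.15. The value of 1.44 was the highest among the other 47 midbrain pools. High Npy thus occurred with and without Socs3 of 5.17 or more. Midbrain HOM differences without T1 HOM PM 1/5 or T2 HOM PM 6/9 are given above.

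**Figure D4:**
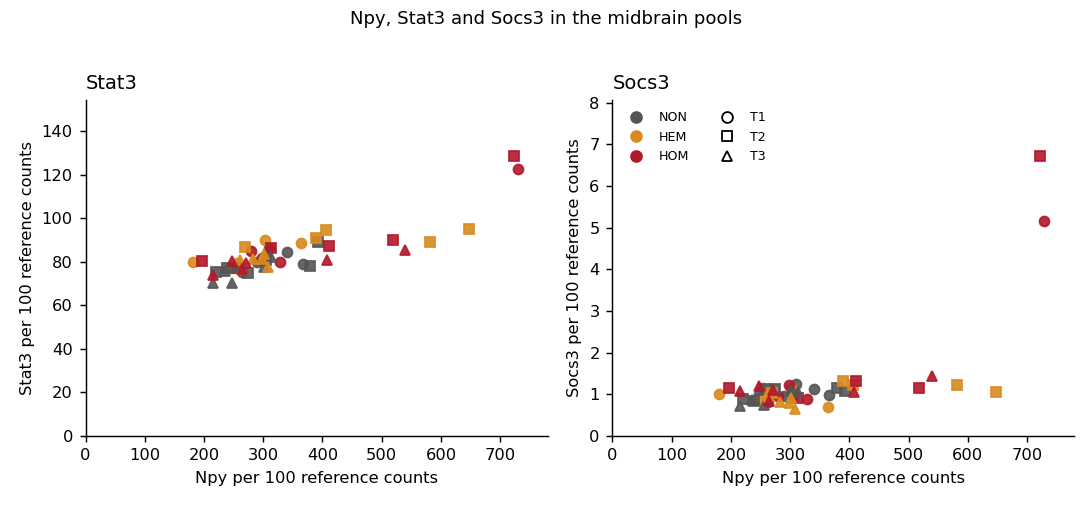
Stat3 and Socs3 levels (vertical axes) against Npy level (horizontal axis) in the 49 midbrain pools, all per 100 counts of the reference gene mean, coloured by genotype and shaped by time point. Pools T1 HOM PM 1/5 and T2 HOM PM 6/9 stand alone at Npy 729 and 722 with Socs3 of 5.17 and 6.72, while the other pools stay at or below 1.44 for Socs3 at any Npy level.

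In the midbrain comparisons where Npy was highest, few of the related genes moved with it. In T2 PM HOM against NON, 0 of 6 feeding genes and 0 of 10 insulin genes passed the test (edgeR, where an unadjusted p under 0.05 held for 1 and 2 genes), and their median log2 fold-changes were -0.09 and -0.10 beside -0.05 for all 43 genes. Of the 7 leptin genes 2 passed, both higher, Socs3 by 1.55 and Stat3 by 0.35 (adjusted p = 0.0114 each), with a list median of -0.01. The HOM Socs3 levels were 1.15, 6.72 and 1.33 beside 0.873 to 1.15 in NON, so that pool 6/9 alone stood apart. In T1 PM HOM the same genes passed, Socs3 by 1.71 and Stat3 by 0.38 (adjusted p = 0.0447 each), beside a list median of 0.11, -0.01 for all genes and 3 of 43 genes called. There the HOM Socs3 levels were 5.17 in pool 1/5 and 0.873 in pool 8/9 beside 0.804 to 0.982 in NON. In the comparisons of T2 HEM with NON, 0 of 43 genes passed in the AM or the PM, while 8 and 5 genes had an unadjusted p under 0.05 in the edgeR fit, and the average of AM and PM called 4, Npy among them.

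Averaged over time points, each genotype was set against NON. In HEM midbrain, 14 of 43 genes were called higher and 1 lower, beside a median of 0.04 for all genes. With TMM the counts were 2 higher and 2 lower beside a median of -0.01. With the positive control probes they were 17 and 1 beside 0.11. On the reference gene scale the insulin list had 4 of 10 genes higher, with a list median of 0.07. They were the kinase Pdk1 (by 0.20), the PI3-kinase subunits Pik3ca (0.08) and Pik3r1 (0.09), and mTor (0.08). The calls of each list are given on that scale only. The leptin list had 3 of 7 higher (Jak2 by 0.14, Stat3 by 0.16 and the phosphatase Ptp1b by 0.10) with a median of 0.09, and of the feeding list only Hcrt passed, at -0.28 (adjusted p = 0.0170), with a median of -0.07. In HOM midbrain, 3 genes were called higher, Npy by 0.44, Stat3 by 0.17 (adjusted p = 0.0232) and Socs3 by 0.67 (adjusted p = 0.0373), and 1 lower, Hdc by -0.24 (adjusted p = 0.0232). No gene of the feeding or insulin list was among them. With TMM the HOM counts were 5 higher and 1 lower. With the positive control probes they were 20 and 0, beside a median of 0.13 for all genes. On the reference gene scale, Npy had the largest log2 fold-change among the called genes of HEM and was second to Socs3 in HOM.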

How the data were processed

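RNA from 192 pools of hindbrain, midbrain, left cortex or right cortex was measured by the authors on the nCounter with probes for 43 target genes, 3 reference genes, 6 positive and 8 negative controls. The deposited values are raw counts per probe, with no correction or normalisation by the authors. No column of another sample was present (0 columns). Pools were grouped by their labels.

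Npy levels were counts divided by the geometric mean of the reference genes, times 100. Log2 values used the count plus 0.5. Each region was fitted in R 4.3.3 by edgeR 4.0.16 (quasi-likelihood, reference gene mean as library size) with 1 mean per combination of time point, genotype and collection time. Contrasts were adjusted over the 43 genes (Benjamini-Hochberg) and called at an adjusted p under 0.05. Groups of 1 pool were not tested against another genotype within a time point and collection time. The 1 T3 HOM PM pool of each region did enter averages, comparisons of time points and PM minus AM contrasts. Its group adds no spread, which came there from the other groups of the region. Permutations used SciPy 1.17.1 in Python 3.11.15 (pandas 2.3.3, NumPy 2.4.6), and figures used matplotlib 3.10.9. The tests were checked on simulated data.

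Named beside Npy are called members of the feeding, leptin and insulin lists, the 3 genes most like Npy over group means and over midbrain deviations, the hypothalamic and islet markers, and, after their values were seen, the genes that rank next to Npy in shared deviations. Npy, the lists and the comparisons were chosen with earlier results of these data known. The region labels, collection times and ages come from the sample labels. The study's own package for such counts, NanoStringDiff, was not used here. No result on single reference genes is reported here.

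Alternatives replaced the scaling (TMM, positive control probes, each reference gene left out), the test (DESeq2 1.42.0, edgeR likelihood-ratio), the pools fitted, the adjustment and each pool in turn. No 2 pools of a group held identical counts. At T2 the labelled ages match NON with transgenic pools (littermates were preferred), but of the 10 matched pairs only 4 (hindbrain), 5 (midbrain), 5 (left cortex) and 7 (right cortex) had gene deviations correlated above 0.1, so the pairs were not used as blocks. The AM groups hold 2 pools with equal and opposite deviations, so their pairs repeat the same value and these tallies count it more than once. In the right cortex all 5 HOM pairs did (0.152 to 0.362, with 0.343 for both AM pairs). There the blocked T2 PM values, 0.38 for HOM (edgeR adjusted p = 0.257) and 0.44 for HEM (adjusted p = 0.220), changed no call.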

Additional observations from a re-analysis of the deposited data

Results flagged for a closer look

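In groups of 4 to 10 pools, 11 groups had their extreme pool compared with the group range for Npy, of which chance marks about 1 in 20. Both groups marked hold the same mouse. T3 HOM AM pool 10, 1 mouse, read 1049 in the left cortex, where the other 4 pools of its group read 539 to 615. The same pool read 883 in the right cortex, where the others read 590 to 633. In the midbrain it read 407, where the others read 215 to 271, a gap that was not large enough to be marked. Its label gives it as previously diabetic, as do the labels of 3 other pools in that group. Its midbrain Stat3 (80.9) lay just above the other 4 pools of its group (74.0 to 80.4), and its Socs3 (1.05) lay within their range.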

How the results depend on the processing

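For 60 results, 564 alternatives left 520 with the same direction and side of the threshold, and leaving out 1 pool did so in 775 of 839 fits. Where a value changed, the cause was not tested unless stated. The 1 genotype call became 0 when p-values were adjusted over all comparisons of a region, when age-matched pools were a replicate block, or with a log2 limit of 1, and 3 with the positive control probes, and it ran from 0 to 2 when 1 pool was left out. T2 PM HOM in the midbrain gave 0.74 with age-matched pools as a replicate block (edgeR adjusted p = 0.113), 0.73 with the 3 age-matched NON pools, 0.81 with adjustment over all comparisons (adjusted p = 0.0556) or with the 2 groups fitted alone (adjusted p = 0.162), and 0.56 to 0.98 without 1 pool. The labels give matched ages, and the pairs did not all deviate together. T2 AM HEM passed when its 2 groups were fitted alone (0.88, adjusted p = 2.2e-05) and ran from 0.11 to 1.38 without 1 pool, and T1 PM HOM from 0.10 to 1.25. The T2 AM HEM fit alone held 2 pools in each group, with HEM pools of 647 and 269, so its small p is not a measure of their spread. An exact permutation test over its 6 splits gave p = 0.333, the smallest it can give. The T2 HEM average over AM and PM missed the threshold at 0.66 with TMM, 0.76 with the positive control probes and 0.68 or 0.71 without 1 reference gene. The midbrain HEM average missed the threshold at 0.30 with TMM, 0.32 without 1 reference gene and 0.33 with T3 transgenic pools labelled previously diabetic only, and ran from 0.21 to 0.46 without 1 pool. The HOM average ran from 0.32 to 0.51. The left cortex HOM average ran from 0.21 to 0.35 and missed it at 0.27 without 1 reference gene, and was 0.76 with the positive control probes.

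T3 against T1 in NON hindbrain was 0.30 with TMM, -1.86 with the positive control probes, -0.16 without 1 reference gene and -0.25 to -0.13 without 1 pool, and in the right cortex -0.27 with TMM and -2.41 with the positive control probes (-2.35 in the left cortex). PM against AM in NON hindbrain turned to 0.24 with the positive control probes and 0.0085 without the 3 low-reference pools. The HOM average in the hindbrain turned to -0.00025 (previously diabetic T3 pools), -0.0097 (TMM) and -0.039 (without 1 reference gene), and ran from -0.0067 to 0.044 without 1 pool. T1 PM HEM in the midbrain turned to -0.22 with all HEM pools, and T2 PM HEM in the right cortex to -0.017 with the positive control probes. PM minus AM of the T2 HEM effect ran from -0.84 to 0.43 without 1 pool, and T2 minus T1 of the HOM effect from -0.12 to 0.46. The averaged PM minus AM effect of HOM, 0.78, ran from 0.72 to 0.98 and passed in 4 of 9 alternatives (lowest adjusted p = 0.0230).

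With the positive control probes, r of shared deviations was -0.060 (left cortex and hindbrain), -0.27 (midbrain and hindbrain), -0.15 (right cortex and hindbrain) and 0.24 (between cortices). Within T2 it was -0.063 (left cortex and hindbrain) and -0.16 (right cortex and hindbrain). Within T1 it missed the threshold at 0.98 (left cortex and midbrain), 0.99 (right cortex and midbrain) and 0.94 (between cortices), and within T3 at 0.85 (left cortex and midbrain), with fewer pools in each. The regions were compared within pools, and without that block (no replicate block) no direction changed. Depth limits the hindbrain most, where a pool held 83 Npy counts.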
